A study of Mus musculus with 2 samples.

Results

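The cells described here came from 2 coronal brain sections of E16.5 mouse embryos. They were chosen by their counts of *Rxrg*, *Tac1*, *Chrm4* and *Ebf1* as direct-pathway-like striatal neurons, a name that held only in part. Most lay in a territory taken as the developing striatum, which was itself drawn from *Rxrg*, *Tac1* and *Chrm4*. A cell was taken where it held at least 20 panel transcripts, where *Rxrg*, *Tac1* and *Chrm4* together made up at least 3 transcripts and at least 3% of the cell, where *Ebf1* had at least 1 transcript, and where the first sum was larger than that of *Drd2*, *Adora2a* and *Penk*. Of 218537 segmented cells, 5188 met the rule, 476 in the control section and 4712 in the *Dnmt1* KO section. Transcripts were detected by MERFISH, in which single RNA molecules are read in tissue by fluorescent barcodes over repeated imaging, with a panel of 500 genes and 50 blank barcodes that code for no gene. The control was a *Sst-Cre/tdTomato* embryo, in which cells that make somatostatin carry Cre recombinase and a red reporter. The KO embryo carried the same alleles together with loxP-flanked *Dnmt1*, so that this DNA methyltransferase gene is lost only where the *Sst* promoter drives Cre. Sections were 10 µm thick. Each group was a single section, so genotype cannot be told apart from whatever else differed between the sections, and nothing that differs between the sections was checked in replicates.

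The striatum holds projection neurons of the direct pathway, which carry the dopamine receptor *Drd1* and the peptides *Tac1* (substance P) and *Pdyn* (dynorphin), and of the indirect pathway, which carry *Drd2*, the adenosine receptor *Adora2a* and *Penk* (enkephalin). Both kinds are GABAergic, are born in the lateral ganglionic eminence and settle lateral to it, where they sort into patches (striosomes), known for the opioid receptor *Oprm1*, and the surrounding matrix. *Isl1* and *Ebf1* encode transcription factors of the direct pathway lineage, whereas *Sp9* encodes one of the indirect pathway lineage. *Rxrg* encodes a retinoid X receptor and *Chrm4* a muscarinic acetylcholine receptor.

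Depth differed between the sections. Control cells held 2842355 panel transcripts with a median of 20 per cell, and KO cells 13437174 with a median of 101. The chosen cells were deeper than the other cells over the minimum, with medians of 49 (quartiles 36 and 62.3) against 34 transcripts in the control and 155 (103 and 227) against 107 in the KO. Their median volume was 1498 µm³ in the control and 1014 µm³ in the KO, above 1233 and 866 µm³ in the other cells. Blank barcodes took 0.496% and 0.486% of all transcripts in cells, and no cell identifier occurred in both sections.

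*Rxrg* carried the choice. It made up 88.0% of the summed *Rxrg*, *Tac1* and *Chrm4* transcripts of the chosen control cells and 92.1% of those of the KO cells. *Chrm4* supplied 10.7% and 3.91%, and *Tac1* 1.31% and 3.96%. At least 1 *Rxrg* transcript lay in all 476 control cells and in 4709 of 4712 KO cells, whereas *Tac1* was present in 24 and 1218 and *Chrm4* in 170 and 1488 of them. *Rxrg* lies on GRCm39 at chr1:167425673-167467193 on the plus strand, *Tac1* at chr6:7554120-7565834 and *Chrm4* at chr2:91757594-91759033. These values selected the cells and describe them only.

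Levels are given below as summed counts of a set of cells per 1000000 of its panel transcripts (CPM), with exact Poisson 95% intervals for counts and exact binomial (Clopper-Pearson) 95% intervals for shares, which cover counting error only. *Rxrg* was at 69800 CPM (66560 to 73157) in the chosen control cells and at 55063 (54562 to 55567) in the chosen KO cells. *Chrm4* was at 8495 CPM (7390 to 9718) and 2340 (2237 to 2445), and *Tac1* at 1042 (681 to 1526; 26 transcripts) and 2367 (2264 to 2473). *Ebf1*, at chr11:44508138-44898918 on the plus strand, was at 27367 CPM (25353 to 29499) and 23417 (23091 to 23746). The composition of the sum thus differed between sections, with more *Chrm4* in the control and more *Tac1* in the KO. The typical control cell stood close to the limit, with a median sum of 4 transcripts against 9 in the KO. Exactly 3 transcripts were held by 218 control and 410 KO cells inside the rule, and 394 and 1039 cells had exactly 2 and met all else. In the control, cells just inside and just outside had 6990 and 4768 CPM of *Drd1*, and 96.8% and 89.9% of them lay in the striatal territory defined next. In the KO these values were 4849 and 2392 CPM, and 77.3% and 47.7%. The shares in the territory are partly set by the genes that the rule and the territory have in common. The *Ebf1* criterion alone removed 668 control and 766 KO cells.

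Most of the chosen cells lay in 2 compact fields, 1 in each hemisphere. A territory was drawn where *Rxrg*, *Tac1* and *Chrm4* made up at least 2% of the smoothed panel transcripts. It had 2 parts of 0.518 and 0.525 mm² in the control and 2 of 0.535 and 0.530 mm² in the KO. Inside it lay 465 (97.7%) of the chosen control cells and 4456 (94.6%) of the chosen KO cells, which the shared genes partly ensure. The control hemispheres held 292 and 184 of the cells and the KO hemispheres 2392 and 2320. Indirect-pathway-like cells, chosen by the mirror rule on *Drd2*, *Adora2a* and *Penk* without an *Ebf1* criterion, numbered 405 and 1753, of which 68.6% and 32.4% lay in the territory. The remaining indirect-like cells lay elsewhere in the section, so the comparisons below use those of the territory, 278 and 568 cells, where this is said.

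**Figure D1:**
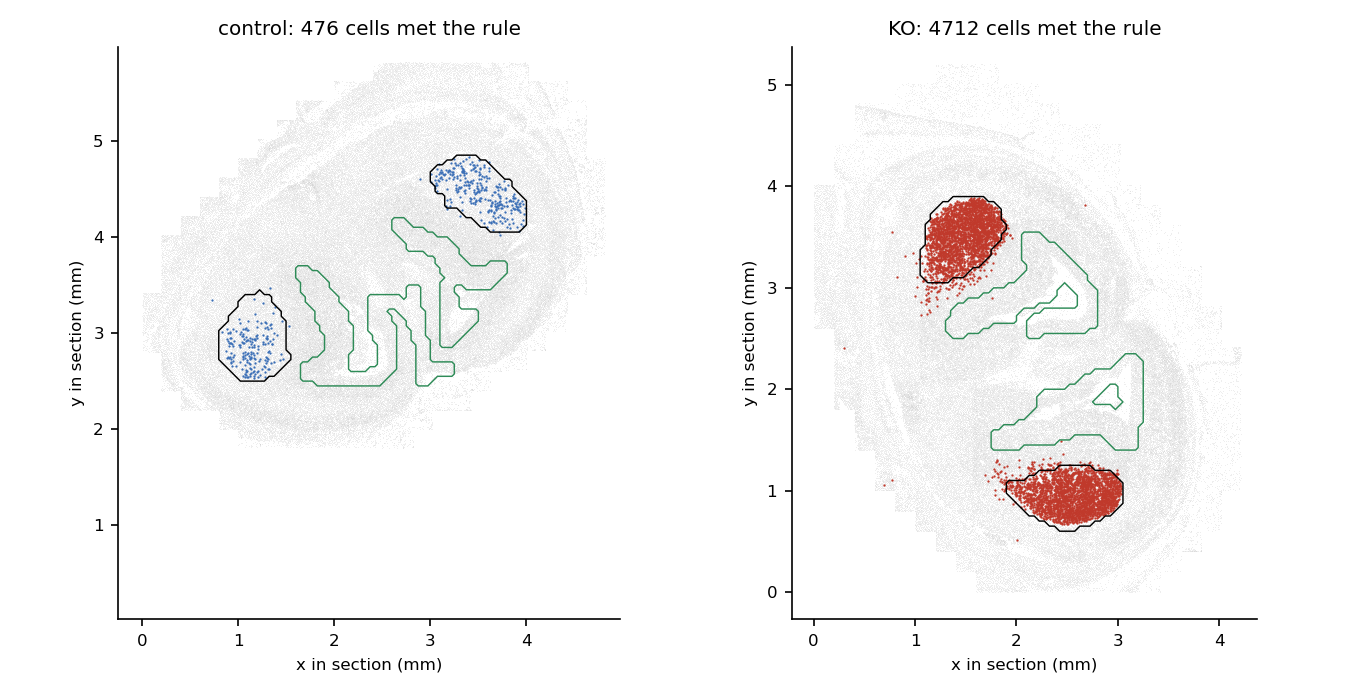
Position of all segmented cells (grey) and of the cells that met the rule (blue in the control, red in the KO) in the control (left) and KO (right) section, with x and y in mm. Black lines outline the territory and green lines the progenitor zone. Most of the 476 control and 4712 KO cells lie in 1 field in each hemisphere, beside the progenitor zone.

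To see what the chosen cells share beyond the rule, their CPM was set against that of all other cells over the minimum in the same section, over the 243 genes outside the rule at or above the panel median. Genes of striatal projection neurons stood highest. Of the 243 genes, 36 (14.8%) were at least 2-fold higher in both sections and 91 (37.4%) at least 2-fold lower in both. These ratios describe cells chosen from the same counts and are no test. Among the highest was *Drd1*, which the rule did not use, at 6932 CPM (5937 to 8045) against 922 in the control and 7079 (6901 to 7262) against 813 in the KO, log2 ratios of 2.91 and 3.12. *Oprm1* had log2 ratios of 2.92 and 3.11, *Pdyn* with 2.78 and 3.05, and *Rgs4*, a regulator of G protein signalling, with 2.55 and 2.92. *Foxp1*, a transcription factor of striatal projection neurons, had 2.52 and 2.87, the potassium channel gene *Kcnh1* 2.48 and 2.92, the orphan receptor gene *Gpr149* 2.26 and 2.38, *Otof* 2.12 and 2.80, and the muscarinic receptor gene *Chrm1* 2.11 and 2.24. All 9 of these genes were thus more than 4-fold higher in the shallow and in the deep section. *Drd1* lies at chr13:54204872-54209760 on the minus strand of GRCm39.

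By list, 3 of the 4 direct pathway genes outside the rule were at least 2-fold higher in both sections. These were *Drd1*, *Pdyn* and *Isl1* (1.86 and 1.63), whereas *Pcdh8* had −0.73 and −0.57. Of 12 pan-striatal genes 8 were higher, among them *Bcl11b* (2.33 and 2.01), *Meis2* (1.84 and 1.59), *Foxp2* (1.46 and 1.87) and the vesicular GABA transporter gene *Slc32a1* (1.65 and 1.46). *Gad1*, a GABA-synthesizing enzyme, had 0.86 and 0.90 and stayed short of 2-fold, and *Dlx1*, a transcription factor gene of ventral progenitors and immature neurons, was lower (−1.15 and −1.53). The median log2 ratio of this list was 1.55 in the control and 1.53 in the KO, against −0.50 and −0.57 over the 243 genes. Of the patch list 3 of 4 genes were higher (*Oprm1*, *Pdyn* and *Lypd1*, with 2.08 and 2.26 for the last), and *Nnat* was not (−0.17 and −0.45). Of the indirect pathway genes outside the rule, *Sp9* had −0.22 and −0.27 and *Gpr52* 0.67 and 0.19, and *Gpr6*, which fell under the filter, had 1.07 and 2.04. Of the 3 matrix genes, *Calb1* had 1.03 and 0.86, *Gda* −0.05 and −0.48, and *Brs3*, which fell under the filter, 2.43 and 3.69.

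**Figure D2:**
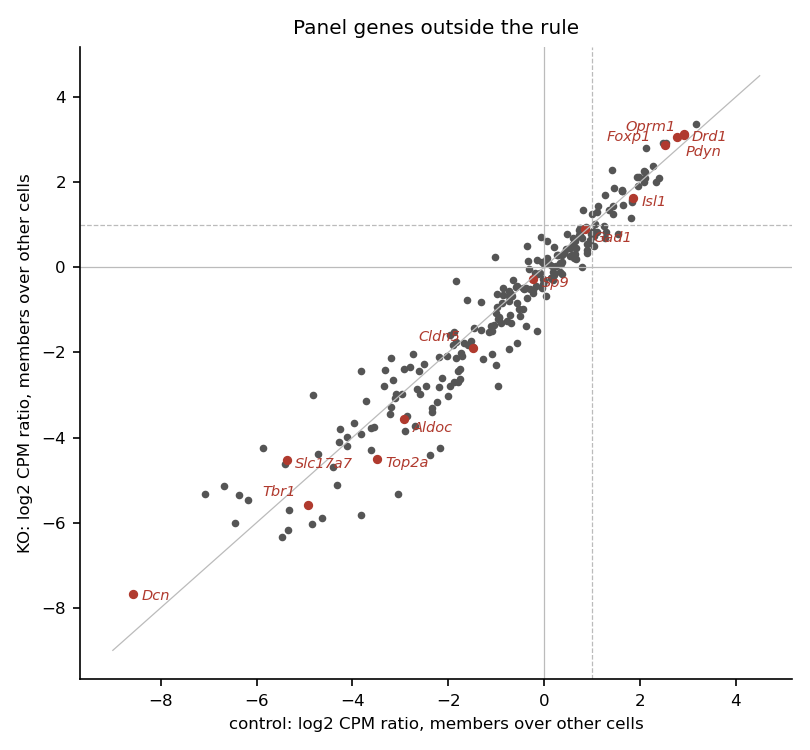
Log2 CPM ratio of the chosen cells over all other cells in the control (x axis) and the KO (y axis) for the 243 genes outside the rule at or above the panel median. The grey diagonal marks equal ratios and dashed lines mark 2-fold. *Drd1*, *Oprm1* and *Pdyn* stand at the upper right in both sections, and *Tbr1*, *Slc17a7* and *Dcn* at the lower left.

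Most markers of other cell types were low. Of 54 panel genes on 12 lists of other cell types, 41 passed the filter, 32 were at least 2-fold lower than in other cells in both sections and 0 were higher. Over all 243 genes 91 (37.4%) were lower and 36 (14.8%) higher. Some markers, such as *Dcn* and *Fezf2*, passed the filter only through the other cells, where they are high. The count of lower genes is thus partly set by the filter and is a description only. All 7 cortical projection neuron genes were lower, and their summed level was 2885 CPM in the control and 2356 in the KO against 38158 and 39371 in other cells. The deep-layer gene *Fezf2* was at 0 of 24957 transcripts in the control, with an upper 95% limit of 148 CPM, and at 67.9 CPM in the KO. The meningeal fibroblast gene *Dcn* was lowest, with 1 transcript (40.1 CPM) in the chosen control cells and 84.5 CPM in the KO against 15361 and 17265 in other cells. *Creb3l1*, *Igf2* and *Prdm8* were the other genes with the lowest ratios, between −6.44 and −5.36 in both sections. The astroglial list was summed at 7733 and 5352 CPM (23590 and 20638 in other cells) and the microglia list at 922 and 552 (3200 and 2373). The endothelial list was at 1923 and 1712 CPM (6088 and 6612), the mural list at 401 and 855 (5169 and 5627), the oligodendrocyte precursor list at 4167 and 2313 (8949 and 7439) and the mesenchymal list at 681 and 562 (25411 and 24456). The progenitor list was at 50807 and 26924 CPM (117808 and 86808), the CGE or dorsal LGE list at 2885 and 2529 (6801 and 8143), and *Slc17a6*, a glutamate transporter gene of subcortical neurons, at 240.4 and 182 (1132 and 1635). Their part in the comparisons between the sections was not tested. The MGE interneuron list was lower by less, with 6692 and 7581 CPM against 10255 and 11600. The cholinergic list of 3 genes, none of which passed the filter, was the exception and was summed at 681 and 618 CPM against 391 and 432. *Chat*, which defines cholinergic neurons, was at 120 CPM (3 transcripts) and 151 CPM against 166 and 169 in other cells.

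*Sst*, whose promoter drives Cre, was at 481 CPM (248.5 to 840) in the chosen control cells and 597 (545 to 651) in the KO cells. After thinning each cell to 36 transcripts, *Sst* was held by 1.39% (0.453 to 3.21) of the chosen control cells, whereas the KO share was 1.88% (1.51 to 2.31). The same shares were 0.787% (0.0955 to 2.82) and 0.502% (0.104 to 1.46) in microglia-like cells, which should lack it. The interval of the control share overlapped that background, and the KO share lay a little above it. Without thinning the shares were 2.31% and 7.03% in the chosen cells, at median depths of 49 and 155, and 0.448% and 1.87% in microglia-like cells, at median depths of 38 and 109. *Dnmt1* was not on the panel.

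Set against the other cells of the same territory, the chosen cells had no gene outside the rule that was 2-fold higher in both sections. Nearest were *Drd1*, with 6932 against 4920 CPM in the control and 7079 against 3743 in the KO (log2 ratios of 0.49 and 0.92), and the extracellular matrix gene *Reln* (0.58 and 0.91). *Isl1* was alike in both sets of cells, with 5570 against 5838 CPM in the control and 8207 against 8242 in the KO. *Rxrg* itself was at 31400 CPM in the other control cells of the territory and 21784 in the other KO cells. The rule fixed the direction of the difference in *Rxrg*. These other cells can include neurons of the same kind that missed the rule at low depth, so likeness to them is hard to read.

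The separation from indirect-like cells was examined next. Over all indirect-like cells of a section, 13 of the 243 genes (5.35%) were at least 2-fold higher in the chosen cells in both sections, led by *Reln* (1.95 and 2.21), *Pdyn* (1.49 and 2.41), *Drd1* (1.38 and 2.17), *Cnr1* (1.41 and 1.37) and *Cxcr4* (1.54 and 1.28). A further 52 (21.4%) were lower, led by *Dcn*, *Thbs2*, *Creb3l1*, *Igf2* and *Ccdc80*, whose log2 ratios in the section nearer to 0 ran from −7.07 to −4.35. Against the indirect-like cells of the territory alone only 2 genes (0.823%) were 2-fold higher in both sections, *Reln* and the cannabinoid receptor gene *Cnr1*, and 9 (3.7%) were lower. These indirect-like cells lay farther from the progenitor zone defined below than the chosen cells did. Median distances were 705 against 597 µm in the control and 541 against 500 µm in the KO. Some of the genes compared here change with this distance, and its part in the differences was not tested.

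In this comparison within the territory, no direct pathway gene outside the rule was 2-fold higher in both sections. By a looser criterion, 3 of these 4 genes had counting intervals that were wholly positive in both sections. *Pcdh8* did not (−0.44, −1.17 to 0.31, and −0.30, −0.59 to 0.01). The share of all compared genes that met this looser criterion is not given here, so the count is a description only. *Drd1* was at 6932 against 4088 CPM in the control, a log2 ratio of 0.76 (0.32 to 1.22), and at 7079 against 2916 in the KO, 1.28 (1.10 to 1.46). *Pdyn* had 0.97 (0.29 to 1.70) and 1.49 (1.21 to 1.78), and *Isl1* 1.12 (0.58 to 1.70) and 0.83 (0.69 to 0.98). *Oprm1* had 0.68 (0.04 to 1.37) and 1.09 (0.88 to 1.31). Of the 3 indirect pathway genes outside the rule, *Sp9* was 2-fold lower in both sections, and *Gpr52* was not (−0.66, −1.83 to 0.53, and −0.80, −1.11 to −0.49). *Sp9* was at 1803 against 7738 CPM in the control, a log2 ratio of −2.10 (−2.64 to −1.59), and at 2317 against 7273 in the KO, −1.65 (−1.78 to −1.52). The receptor phosphatase gene *Ptprm*, which is on no list, was at 11820 against 41098 CPM and 7465 against 27906, log2 ratios of −1.80 (−2.01 to −1.59) and −1.90 (−1.97 to −1.84). *Gpr6*, a receptor of indirect pathway neurons, had −2.30 and −1.48. It fell under the filter, which was set over the chosen cells and all other cells, so the count of lower genes leaves it out. Genes of all striatal projection neurons differed little, with *Foxp1* at 0.15 and 0.25 and *Meis2* at 0.15 and 0.08. The other genes lower in the chosen cells were *Unc5d*, *Klf4*, *Cpne4*, *Gabra3*, *Pde1a*, *Sp8* and *Stac2*, with the weaker log2 ratio of both sections between −1.71 and −1.098. *Unc5d*, *Klf4* and *Sp8* were below the panel median in the chosen cells and passed the filter only through other cells, where they are higher. *Gabra3* and *Pde1a* lay near the panel median of the chosen cells, 241 CPM, and rested on few control transcripts. These ratios are descriptions only.

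The label direct-pathway-like held only in part. *Rxrg*, which carried the choice, was also frequent in indirect-like cells of the territory. After thinning to 36 transcripts it was held by 59.5% (52.4 to 66.4) of the control cells and by 62.4% (58.3 to 66.5) of the KO cells, against 3.15% and 1.17% of microglia-like cells. In the chosen cells *Drd1* was found in 20.8% (16.8 to 25.4) and 19.8% (18.7 to 21.0), and *Drd2* in 15.6% (11.97 to 19.7) and 15.3% (14.3 to 16.4). In microglia-like cells the shares were 1.18% and 0.502% for *Drd1* and 1.57% and 0.502% for *Drd2*. Unthinned shares in the chosen cells were 26.7% and 55.7% for *Drd1* and 21.0% and 42.5% for *Drd2*. Thinning left out 116 of the control and 22 of the KO cells. The chosen cells are therefore called *Rxrg*-led cells from here on.

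In deeper KO cells, *Drd2* went with *Sp9* and *Ptprm* among the *Rxrg*-led cells. In the 3600 with at least 100 transcripts, each thinned to 100, *Drd2* was present in 1303 (36.2%) and *Drd1* in 1588 (44.1%). Cells with *Drd2* held *Sp9* in 25.0% (22.7 to 27.5) and *Ptprm* in 54.9% (52.1 to 57.6), against 12.8% (11.5 to 14.3) and 28.4% (26.6 to 30.3) of cells without it. *Isl1* did not set them apart from cells with *Drd1*, since it was held by 45.9% (43.2 to 48.6) of cells with *Drd2* against 55.4% (53.3 to 57.4) of those without, by 48.5% (46.0 to 51.0) of cells with *Drd1* against 54.7% (52.5 to 56.9), and by 43.9% (40.4 to 47.4) of cells with *Pdyn* against 54.2% (52.4 to 56.1). Cells with *Drd1* held *Pdyn* in 26.9% (24.8 to 29.2) against 18.3% (16.7 to 20.1) and *Tac1* in 20.6% (18.6 to 22.7) against 15.1% (13.6 to 16.8) of cells without it. *Drd1* and *Drd2* were found together in 551 cells, and *Drd2* was held by 34.7% (32.4 to 37.1) of cells with *Drd1* and 37.4% (35.3 to 39.5) of cells without it. In the 231 control cells thinned to 50 transcripts they were found together in 16 cells, and these shares were 23.9% (14.3 to 35.9) and 20.7% (14.8 to 27.8). Because the rule limits *Drd2* and counts *Tac1*, the shares that involve these genes are descriptions of cells chosen partly on them. Neither the part of transcripts from neighbouring cells in these shares nor that of distance to the progenitor zone, described next, was tested.

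Next, the *Rxrg*-led cells were ordered by their distance to the progenitor zone, the area in which genes of dividing and radial glial cells took at least 2 times their mean share, and split into 5 bins of equal cell number. Median distances ran from 415 µm in bin 1 to 772 µm in bin 5 in the control and from 312 to 717 µm in the KO. Of 72 genes outside the rule with a mean of at least 2000 CPM, 12 (16.7%) were at least 2-fold higher in bin 5 than in bin 1 in both sections and 8 (11.1%) at least 2-fold lower. Far from the zone *Drd1* was higher. Its level in bins 1 to 5 was 3661, 5263, 5225, 8755 and 11017 CPM in the control and 4058, 4544, 6007, 7518 and 10747 CPM in the KO. The log2 ratio of bin 5 over bin 1 was 1.59 (0.79 to 2.46) and 1.41 (1.27 to 1.55). *Rgs4* ran from 6029 to 20749 CPM in the control and from 5553 to 28568 in the KO, and the glutamate receptor gene *Grm3* from 14858 to 48660 and from 7236 to 34130. *Gad1* (1.87 and 1.25), the secreted factor genes *Cxcl14* (2.35 and 1.499) and *Npy* (1.45 and 2.12), *Serpine2*, *Gpr153*, *Adgrl2*, *Lypd1*, *Junb* and *Cpne4* made up the rest, the last with only 2 transcripts in bin 1 of the control.

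Near the zone *Isl1* was higher, with 9259, 7237, 4645, 5447 and 2020 CPM over the 5 bins in the control and 13824, 11792, 8202, 6530 and 4259 in the KO, log2 ratios of −2.20 (−3.30 to −1.22) and −1.70 (−1.81 to −1.58). *Cnr1* fell from 22394 to 4958 CPM and from 28067 to 8186, and the adhesion gene *Cadm1* from 29285 to 9365 and from 42335 to 9963. The neurofilament gene *Nefm* had −1.17 and −1.57. *St6galnac5*, *Syt6* and *Sox9*, the last itself one of the genes that defined the zone, were also among the 8. So 2 genes of the direct pathway, *Drd1* and *Isl1*, ran in opposite directions along the same cells. *Pdyn*, with 0.86 (−0.43 to 2.28) and 2.11 (1.87 to 2.35), and *Oprm1*, with −0.72 (−2.05 to 0.56) and −0.32 (−0.49 to −0.15), were not 2-fold different in both the control and the KO. *Oprm1* was highest in bin 2 in both sections. Among rule genes, *Drd2* in the *Rxrg*-led cells had 1.01 (−0.06 to 2.18) and 1.45 (1.29 to 1.61). The rule limits *Drd2* in these cells, so these values are descriptions only.

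**Figure D3:**
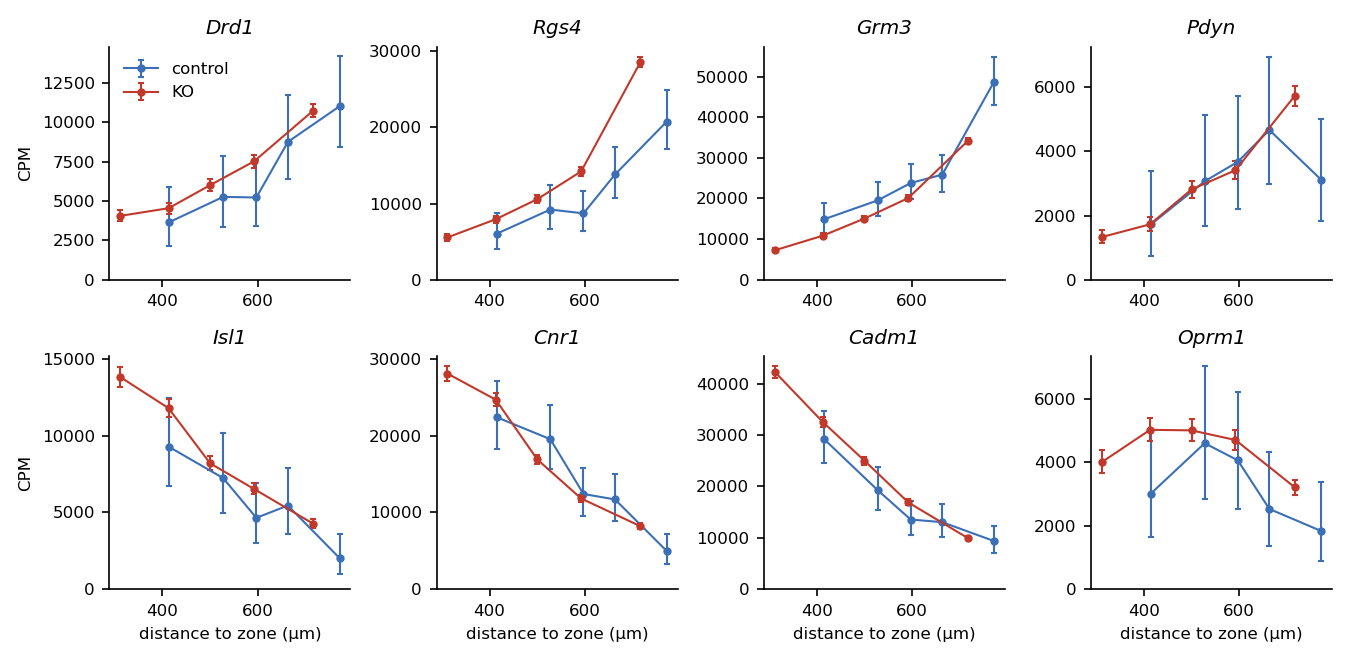
Level of 8 genes in *Rxrg*-led cells (CPM, linear axes from 0) against the median distance to the progenitor zone of 5 bins of equal cell number, in the control (blue) and KO (red). Bars are exact Poisson 95% intervals. *Drd1*, *Rgs4* and *Grm3* are higher far from the zone in both sections, and *Isl1*, *Cnr1* and *Cadm1* higher near it.

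Over the 72 genes the log2 ratios of both sections had the same sign for 59 and a rank correlation (Spearman) of 0.86 across genes, which are no replicates of each other. In single hemispheres all 12 far genes and 7 of the 8 near genes, *Sox9* excepted, kept their sign in all 4, where *Cpne4*, *Cxcl14* and *Npy* had no transcript in bin 1 of 1 control hemisphere. Depth moved with distance, since the median cell held 43 transcripts in bin 1 and 53 in bin 5 of the control and 111 and 217 in the KO, and its part in the gradients was not tested. With the KO thinned to the control depth 11 genes were higher far from the zone and 6 near it. Cells of the territory that met neither rule showed the same signs over the same distances for all 20 genes. Among them *Drd1* had 1.46 and 0.84 and *Isl1* −2.08 and −2.45. The rule took few shallow cells, so these cells can include neurons of the same kind. They cannot show whether the order along this axis is particular to such neurons.

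To ask whether *Oprm1* marked clustered groups of cells, as patches would give, *Oprm1* was measured in *Rxrg*-led cells 20 to 60 µm from a cell with *Oprm1* and from a cell without it. It was at 3574 against 3178 CPM in the control, a ratio of 1.12 (0.568 to 2.06) from 67 cells with the gene. In the KO it was at 4445 against 4251 CPM, a ratio of 1.05 (0.980 to 1.12) from 2225 cells. The median ratio over the genes measured the same way was 1.16 for 180 genes in the control and 1.10 for 243 genes in the KO, so *Oprm1* lay at percentile 47.2 and 31.3. No clustering of *Oprm1* was detectable at this distance, but the control interval was too wide for that section to decide. Of the other patch genes, the KO ratio was 1.46 (1.36 to 1.58) for *Pdyn*, 1.35 (1.28 to 1.43) for *Lypd1* and 1.08 (0.980 to 1.19) for *Nnat*. In the control these were 0.656, 1.34 and 1.21. Cells with *Oprm1* were deeper than those without, with medians of 188 against 130 transcripts in the KO and 52 against 48 in the control. The part of depth and position in these ratios was not tested. *Rgs4* had a KO ratio of 1.91 and *Peg10*, an imprinted gene, 2.78, the highest there.

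Among neighbours within 50 µm of an *Rxrg*-led cell, 11.95% of cells over the minimum were *Rxrg*-led and 5.70% indirect-like in the control, and 51.8% and 5.93% in the KO. Around indirect-like cells of the territory these shares were 9.05% and 9.27% in the control and 46.3% and 7.47% in the KO. In both sections each class thus had relatively more neighbours of its own kind. The classes also lay at different distances from the progenitor zone, and the part of position in these shares was not tested. The median distance to the nearest other *Rxrg*-led cell was 19.1 µm in the control and 9.57 µm in the KO.

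The share of cells that met the rule differed between sections and moved with depth. It was 0.862% (0.786 to 0.942) of 55231 control cells over the minimum and 4.65% (4.52 to 4.79) of 101250 KO cells, a log2 ratio of 2.43. Thinning KO transcripts to the control depth before the rule was applied left 1077 KO cells, 1.78% (1.67 to 1.89), a log2 ratio of 1.045. In the territory the rule took 8.72% (7.98 to 9.51) of 5330 control cells and 47.6% (46.6 to 48.6) of 9364 KO cells, and with every cell thinned to 50 transcripts 13.5% (11.5 to 15.7) of 1053 and 21.5% (20.6 to 22.4) of 8491. Within classes of similar depth the shares were closer, and their intervals overlapped in the shallowest class and did not in the others that held cells of both sections, from 30 to under 200 transcripts. Among territory cells of 50 to 99 transcripts the rule took 20.8% (18.3 to 23.4) of the control and 35.7% (33.8 to 37.7) of the KO cells, and among those of 20 to 29 transcripts 2.88% (2.19 to 3.70) and 3.74% (1.63 to 7.23).

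**Figure D4:**
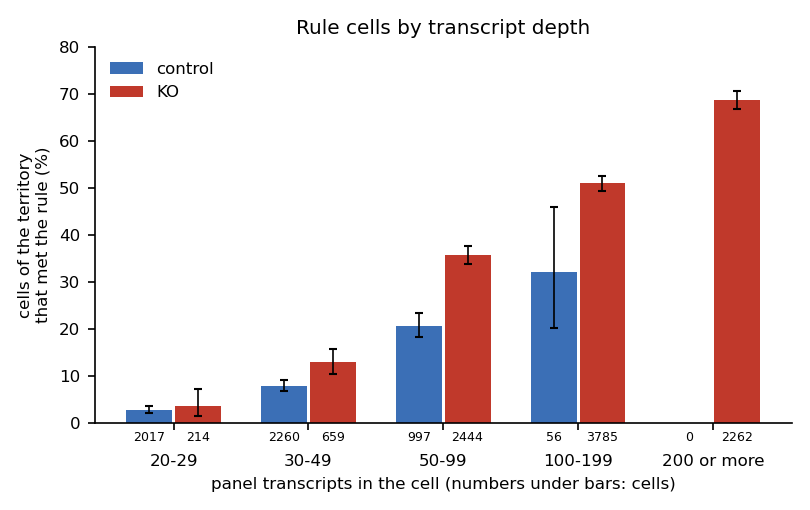
Percentage of territory cells that met the rule, by the number of panel transcripts in the cell, in the control (blue) and KO (red). Bars start at 0, lines are exact binomial 95% intervals and the numbers under the bars are cells. The share rises from 2.88% to 32.1% in the control and from 3.74% to 68.8% in the KO.

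Molecules were also counted without regard to cells. All decoded panel molecules of the territory numbered 284498 in the control and 1633918 in the KO, and *Rxrg*, *Tac1* and *Chrm4* made up 4.08% and 4.58% of them, or 4.47% and 4.58% in imaging plane 0 alone. Since the territory was drawn by the share of these same genes, their share within it is largely set by that choice and is a description only. Their share of the molecules of all 6 direct and indirect pathway rule genes without *Ebf1* was 75.2% and 79.6%. By cells the *Rxrg*-led class made up 54.0% (50.7 to 57.4) of both classes in the control, against 72.9% (71.8 to 74.0) in the KO, a difference of 18.9 percentage points. This difference was 1.90 points without the *Ebf1* criterion, which the mirror rule lacks, and 26.1 points in the territory alone. Between single hemispheres it ran from 6.59 to 25.8 points.

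**Figure D5:**
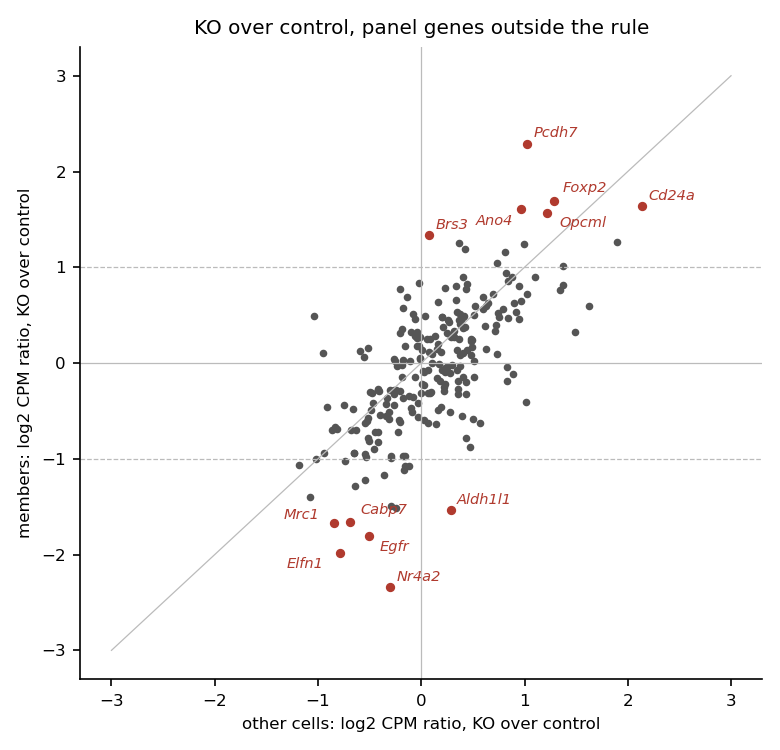
Log2 CPM ratio of KO over control in the *Rxrg*-led cells (y axis) against the same ratio in all other cells over the minimum (x axis) for the 243 genes outside the rule at or above the panel median in the chosen cells. The grey diagonal marks equal ratios and dashed lines mark 2-fold. The 6 highest and 6 lowest ratios in the chosen cells are named, and *Cd24a*, *Opcml*, *Foxp2* and *Pcdh7* lie at the upper right.

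Finally, gene levels in the *Rxrg*-led cells were compared between KO and control. Genes of the direct pathway and pan-striatal lists differed in both directions or not detectably. *Drd1* had a log2 ratio of 0.03 (−0.19 to 0.26), *Pdyn* 0.02 (−0.30 to 0.35), *Slc32a1* −0.01 (−0.24 to 0.23) and *Bcl11b* −0.09 (−0.20 to 0.02), differences not detectable at this depth. *Isl1* had 0.56 (0.32 to 0.81) against 0.79 in other cells and *Foxp1* 0.78 (0.66 to 0.90) against 0.43, and both intervals lay above 0. Of the 4 direct pathway genes 0 were 2-fold different, and of the 12 pan-striatal genes *Foxp2* was 2-fold higher and *Gpr149* 2-fold lower. Over all 243 genes 13 (5.35%) were higher and 18 (7.41%) lower, so these lists did not stand out. *Gpr149* was at 3005 CPM in the control and 1435 in the KO, a log2 ratio of −1.07 (−1.40 to −0.71), with −1.19 in other cells and −1.18 over all molecules of the territory. Among rule genes, *Chrm4* had −1.86 (−2.07 to −1.65), with −1.18 in other cells and −1.01 over all molecules of the territory, and *Tac1* 1.18 (0.63 to 1.80), with 0.66 and 1.78. The rule counted both genes, and what it asks of a cell moves with depth. Their ratios in the chosen cells are thus partly set by the rule and are descriptions only. Over the 243 genes that reached the panel median in these cells, 195 of which were also among those compared with other cells above, the median was −0.02, and the 5th and 95th percentiles were −1.11 and 1.01.

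At least 2-fold higher in the KO were 13 of 243 genes (5.35%) and at least 2-fold lower 18 (7.41%). The counting interval of the ratio included 0 for 2 of the 13 and none of the 18, and it lay wholly beyond 2-fold for 3 of the 13 and 4 of the 18. Of the 13, all had the same direction in other cells, where 6 were also 2-fold higher, and of the 18, 17 had the same direction and 3 were 2-fold lower. The highest was the protocadherin gene *Pcdh7*, with 5 control and 824 KO transcripts, 200.3 against 981 CPM, a log2 ratio of 2.29 (1.06 to 3.92) that was 1.03 in other cells and 1.198 over all molecules of the territory. The forkhead factor gene *Foxp2* was at 801 CPM (489.5 to 1238) and 2593 (2485 to 2704), 1.69 (1.06 to 2.41), with 1.28 in other cells. *Cd24a*, a surface protein of immature neurons, was at 11019 CPM (9755 to 12401) and 34323 (33928 to 34721), 1.64 (1.47 to 1.82), but 2.14 in other cells. *Ano4* (1.61), *Opcml* (1.57) and *Brs3* (1.34, with 0.07 in other cells and 1.31 over all molecules of the territory) followed.

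The lowest was the nuclear receptor gene *Nr4a2*, with 21 control and 140 KO transcripts, 841 against 166.7 CPM, a log2 ratio of −2.34 (−3.004 to −1.60) that was −0.30 in other cells and −1.09 over all molecules of the territory. *Elfn1* had −1.99 (−2.66 to −1.24), *Egfr* −1.81, the macrophage gene *Mrc1* −1.67, *Cabp7* −1.66 and the astroglial gene *Aldh1l1* −1.54. *Cabp7* turned to 0.39 in imaging plane 0 of the territory. Over all molecules of the territory *Elfn1* had −1.29 and *Mrc1* −1.71, but *Egfr* had −0.71, *Cabp7* −0.58 and *Aldh1l1* −0.45 and were no longer 2-fold lower. *Nr4a2*, *Egfr*, *Mrc1* and *Aldh1l1* are known from cortical neurons, progenitors, macrophages and glia, and all 4 were lower in these cells than in other cells of the same section, with log2 ratios from −2.39 to −0.96 in the control and from −4.42 to −2.31 in the KO. The cell cycle gene *Ccnd2* was at 42834 CPM (40304 to 45480) and 21002 (20693 to 21314), −1.03 (−1.12 to −0.94), with −0.74 in other cells. Few control transcripts stood behind most of these ratios, since 10 of the 13 higher and 15 of the 18 lower genes had under 30. Across the 243 genes the ratios in the *Rxrg*-led cells and in other cells had the same sign for 168, with a rank correlation of 0.68.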

How the data were processed

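Images were decoded and cells outlined by the authors with the MERSCOPE software. The deposited tables gave, for each cell and gene, raw counts that had not been normalized. The deposited cell volume, a signal of segmentation size in µm³, and the positions of cells and single molecules were used as given by the authors.

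Members and gene lists were chosen with earlier results of these data known. Samples were grouped by their labels, and 0 columns were left unassigned. Python 3.11.15 was used with pandas 2.3.3, numpy 2.4.6, scipy 1.17.1 and, for plots, matplotlib 3.10.9. Blank barcodes were left out of totals. With 1 section per group no test was run. CPM is computed from summed counts, and ratios carry no pseudocount and an exact conditional 95% interval. Where 1 side had 0 transcripts, 3 were used as a bound. For the neighbour ratios, counts summed over pairs of cells were first scaled by the number of cells over the number of pairs. The intervals of these ratios are thus approximate. Genes below the panel median of mean CPM were left out of counts of genes. This mean was taken over the chosen cells and all other cells, also for the comparisons with indirect-like cells. For KO over control it was taken over the chosen cells alone. Lists covered the direct and indirect pathway outside the rule, pan-striatal, patch and matrix genes and 12 other cell types. Named genes were those of the rule and lists, the 10 highest and 5 lowest ratios over other cells, the 5 highest and 5 lowest over indirect-like cells, and the 6 highest and 6 lowest of KO over control. Microglia-like cells held at least 3 transcripts and at least 10% of *Csf1r*, *Cx3cr1* and *C1qa*. Maps had bins of 50 µm and a Gaussian smoothing of 50 µm, and parts of at least 0.1 mm². The planned territory needed 20% members per bin, which gave 0 parts in the control, so a territory by molecule share was chosen after the data were seen, as were the removal of thin rims from the progenitor zone, the minimum of 2000 CPM for the distance profiles and the restriction of indirect-like cells to the territory. No doublet caller was run, since segmented cells of a section are not droplets, and merged cells were addressed by leaving out the 1% largest. Gene coordinates are those of GENCODE on GRCm39. Calculations were tested on simulated data. Some genes that the naming rule takes are not reported here.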

Additional observations from a re-analysis of the deposited data

How the results depend on the processing

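The log2 ratio of the share of cells that met the rule stayed positive under all settings tried but moved from 2.43 to 1.64 at a minimum of 50 transcripts, 1.045 with the KO thinned to control depth, 1.39 without the *Ebf1* criterion, 1.86 at a minimum share of 5%, 1.04 with every cell thinned to 50 transcripts and 0.67 when this was done within the territory. The difference of the direct share moved from 18.9 points to 1.90 without the *Ebf1* criterion, 14.3 with every cell thinned to 50 transcripts, 26.1 in the territory, 22.4 in the territory at 50 transcripts, and 6.59, 10.2 and 25.8 in 3 of the 4 pairings of hemispheres. Genes 2-fold higher and lower in the KO numbered 42 and 43 without a filter on low values, and those lower numbered 10 over all molecules of the territory and 6 in imaging plane 0, in place of 18. Genes 2-fold above other cells numbered 0 in place of 36 when other cells of the territory were the comparison. The area with at least 20% members was 0 in the control against 0.95 mm² for the KO. It became 0.39 and 1.17 mm² at 10% members and 1.04 and 1.07 mm² by molecule share. *Cabp7* turned from −1.66 to 0.39 in imaging plane 0. The causes were not tested. Among the values for single genes 351 stayed within the counting interval and 63 moved beyond it. No paired analysis was possible because each group has 1 section. Depth limits the control most: its 476 cells held 24957 transcripts, so that a gene at the panel median had about 6.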
